A study of Drosophila melanogaster with 6 samples.

Results

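The mRNAs of 60 cytoplasmic ribosomal protein genes were followed in fly heads, 39 of the large ribosomal subunit (RpL and RpLP genes) and 21 of the small subunit (RpS genes). They were taken by gene identifier from the 17545 genes of the count tables. The rule itself used no measured value, but it was set with earlier results of these data known. A further 21 cytoplasmic ribosomal protein genes, RpS26 and RpL12 among them, were not among the 60 and served as a list for comparison.

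HSD-F1 flies were compared with ND flies to ask how gene expression in the head differs after the generation before was raised on sugar-rich food. The labels give the diet of the mothers, which held 20% sucrose (high-sugar diet) for HSD-F1 flies and 10% sucrose (normal diet) for ND flies. By the paper's account the parents were mated among themselves, so that the diet of the fathers may have differed too and cannot be told apart from that of the mothers. The HSD-F1 flies themselves ate the normal diet. Both groups were 5-day-old females with 3 libraries each, made from pooled heads, and the labels give both the genotype W+VDRC whereas the drawing of the cross in the paper names Canton-S. The labels do not say whether the 3 libraries of a group came from separate mothers or cultures, so p-values measure the spread between these libraries.

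Each ribosome holds a small subunit, which reads the mRNA, and a large subunit, which joins the amino acids, and most ribosomal proteins are present once in each. Cells therefore make the ribosomal proteins in matched amounts, and their short mRNAs are among the most abundant of any tissue. In Drosophila, loss of 1 copy of many of these genes gives the Minute phenotype, with slow development and thin bristles. RpL32, also called rp49, is widely used as the reference gene of quantitative RT-PCR, in the study's own measurements too. Their introns often carry small nucleolar RNAs, which guide the modification of rRNA, and 25 of the 60 genes host 71 annotated snoRNA genes on the same strand.

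The libraries held between 20266352 and 26190694 counts. The lowest total was that of HSD-F1 replicate 1. Photoreceptor genes (summed level 38853 to 50825 CPM, the count scaled to the size of the library) and neuronal genes (3881 to 4385 CPM) were found in every library, as the label head implies, and genes of the male germline and accessory gland reached at most 0.380 CPM in sum. Photoreceptor genes summed to 38853, 50553 and 50825 CPM in HSD-F1 replicates 1, 2 and 3, against 44092, 44148 and 46174 CPM in ND. HSD-F1 replicates 1 and 3 were thus lowest and highest, as they also were in glial genes. Neuronal and hemocyte genes were instead highest in HSD-F1 replicate 1. Muscle genes were lowest in ND replicate 3 (6931 CPM, with 8349 to 9055 CPM in the remaining libraries). Ovary and egg genes summed to 39.3, 36.1 and 51.5 CPM in HSD-F1 replicates 1, 2 and 3, against 38.1, 33.8 and 143.6 CPM in ND replicates 1, 2 and 3. Defining head fat body genes, which a head also contains, summed to 84909, 67425 and 66963 CPM in HSD-F1, against 83219, 67669 and 77799 CPM in ND. Of them, 10 of 10 were fitted lower in HSD-F1, where 49.4% of all genes tested were fitted higher. An unadjusted p under 0.05 in edgeR's test was reached by 1 (to, background 2.16% lower). All 10 stayed lower without HSD-F1 replicate 1 or ND replicate 2. Without HSD-F1 replicate 2, 7 were lower and 3 higher, and without HSD-F1 replicate 3, 9 were lower and 1 higher. Without ND replicate 1, without ND replicate 3 or with upper quartile scaling, 8 were lower and 2 higher. The part of these differences in the results was not tested. In head RNA, fewer cells of a type and less RNA per cell cannot be told apart.

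Libraries also stood apart by gene structure, in all genes and not in the ribosomal protein genes alone. In HSD-F1 replicate 1 the log2 CPM minus the mean of the other 5 libraries fell with the number of splice junctions per kb of transcript, with a Spearman's rho of -0.68 across 7189 other genes. In HSD-F1 replicate 3 it fell with transcript length, with a rho of -0.63 across the same genes. The corresponding values with junctions in the remaining libraries lay between 0.15 and 0.29. With length they were 0.34 in HSD-F1 replicate 1 and between -0.05 and 0.30 in HSD-F1 replicate 2 and the ND libraries. These are descriptions across genes that share the same libraries. Because ribosomal protein transcripts are short and densely spliced (median 716.5 bases and 3.13 junctions per kb, against 2167 bases and 1.62 junctions per kb in the other genes), the ratio of summed levels, the counts of genes called and the medians over the genes are also given without these libraries.

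All 60 genes were measured deeply, with 884 to 62139 counts per library, and all 60 passed the filter on low counts. Of the 200 genes with the highest mean CPM, 50 were ribosomal protein genes, and 99.1% of the 12048 genes tested had a lower mean CPM than the median ribosomal protein gene. Mean levels ran between 104 CPM for RpL39 and 2103 CPM for RpL7A, with a median of 949 CPM.

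Per kb of counted exon length, the levels covered a 7.89-fold range around a median of 1018 CPM per kb, with quartiles of 777 and 1282 CPM per kb. The median was 998 CPM per kb in the large subunit and 1122 CPM per kb in the small subunit. In the large subunit RpL14 (1863 CPM per kb), RpL27A (1833 CPM per kb) and RpL29 (1709 CPM per kb) were highest. RpL38, known in mice for its role in the translation of Hox mRNAs, was lowest at 281 CPM per kb, followed by RpL39 at 361 CPM per kb and RpL5, which carries 5S rRNA into the large subunit, at 426 CPM per kb. In the small subunit RpS20 (2195 CPM per kb) and RpS15 (2143 CPM per kb) were highest, and RpS9 (278 CPM per kb), RpS21 (335 CPM per kb) and RpS10b (381 CPM per kb) were lowest. The counted length joins all annotated exons of a gene, so that a gene with long alternative exons has a lower value. Over the length of the median transcript the range was 7.10-fold, from RpL39 to RpS15.

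Summed over the 60 genes, expression was 49891, 61099 and 73899 CPM in HSD-F1 replicates 1, 2 and 3, against 59283, 61499 and 54453 CPM in ND replicates 1, 2 and 3. Both the lowest and the highest library were HSD-F1 libraries, and the ND values lay between them. These sums were 4.99%, 6.08% and 7.22% of all counts in HSD-F1, against 5.84%, 6.26% and 5.59% in ND. The mean was 61630 ± 12013 CPM in HSD-F1 and 58412 ± 3603 CPM in ND (SD, n = 3 each), a ratio of 1.06 that was smaller than the spread between replicates. The highest HSD-F1 library was 1.48-fold above the lowest, compared with 1.13-fold in ND. The ratio was 1.16 without HSD-F1 replicate 1 and 0.950 without HSD-F1 replicate 3, so the direction of the summed difference rested on which HSD-F1 libraries were included.

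The large-subunit genes summed to 32255, 38529 and 46310 CPM in HSD-F1, against 37259, 38932 and 34491 CPM in ND. The small-subunit genes summed to 17635, 22570 and 27589 CPM in HSD-F1, against 22024, 22567 and 19961 CPM in ND. Both subunits therefore had the same order of libraries at their ends, with HSD-F1 replicate 1 lowest and HSD-F1 replicate 3 highest. The ratio of large to small subunit was 1.83, 1.71 and 1.68 in HSD-F1, against 1.69, 1.73 and 1.73 in ND. Its mean was 1.74 ± 0.0799 in HSD-F1 and 1.71 ± 0.0201 in ND (SD, n = 3 each), and the groups overlapped. HSD-F1 replicate 1 had the highest ratio, and the mean ratio of HSD-F1 divided by that of ND was 0.987 without this library and 1.01 with it. Small-subunit genes had more junctions per kb (median 3.56) than large-subunit genes (median 2.46).

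**Figure D1:**
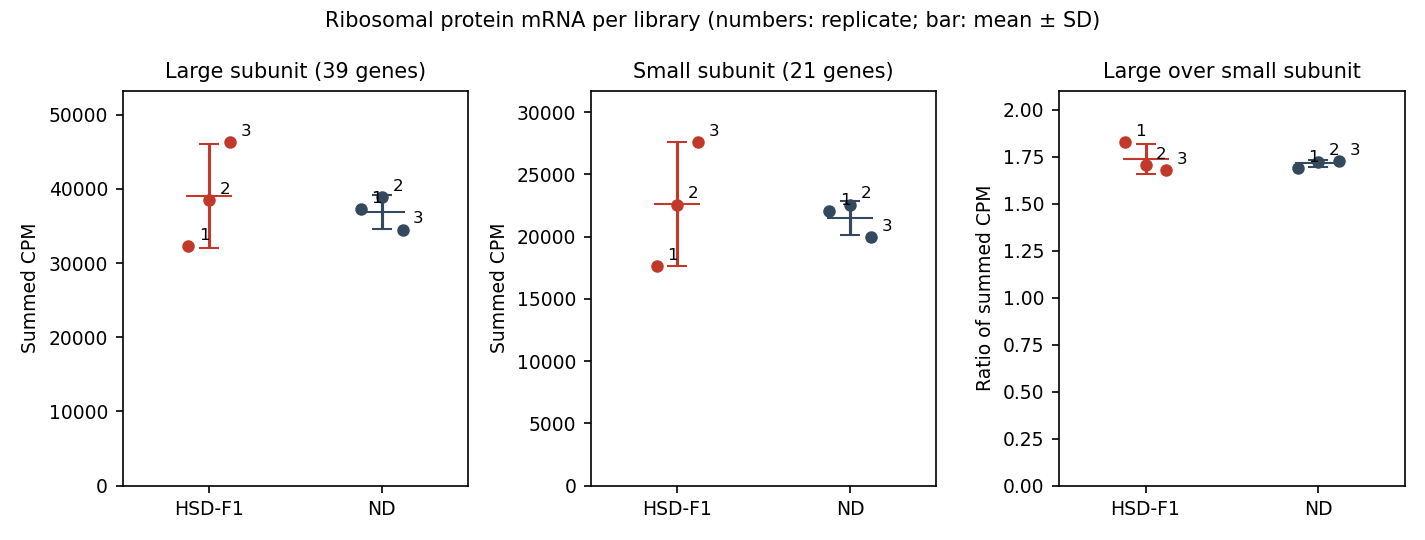
Summed CPM of the large-subunit genes (left) and the small-subunit genes (middle) and the ratio of both sums (right) in each library, HSD-F1 in red and ND in dark blue, with replicate numbers beside the points and the mean ± SD as a bar. HSD-F1 replicates 1 and 3 lay below and above all ND libraries in both subunits, and the ratio was highest in HSD-F1 replicate 1 (1.83).

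The high end of the spread within HSD-F1 was shared by nearly all of the genes, and the low end by fewer of them. HSD-F1 replicate 3 had the highest CPM of the 6 libraries for 58 of 60 genes, the exceptions being RpLP2 (highest in HSD-F1 replicate 1) and RpL22 (highest in HSD-F1 replicate 2). HSD-F1 replicate 1 had the lowest CPM for 34 genes and ND replicate 3 for the other 26. Over all genes tested, 23.9% were lowest in HSD-F1 replicate 1 and 23.5% were highest in HSD-F1 replicate 3. The median deviation of a ribosomal protein gene from the mean of the other 5 libraries was -0.27, 0.04 and 0.36 (log2) in HSD-F1 replicates 1, 2 and 3, against -0.01, 0.05 and -0.18 in ND replicates 1, 2 and 3.

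In HSD-F1 replicate 3 all 60 genes lay above the mean of the other libraries, by 0.02 to 0.68 on the log2 scale. HSD-F1 replicate 1 was more uneven, with 51 genes below and 9 above, in a range of -1.39 to 0.30. RpL39, one of the smallest ribosomal proteins, showed the lowest deviation (-1.39), with 43.6, 120.4 and 138.8 CPM in HSD-F1, against 108, 128 and 85.7 CPM in ND. RpS20 (-1.05) had 649, 1347 and 1726 CPM in HSD-F1, against 1243, 1351 and 1113 CPM in ND. RpL29 (-1.01) had 356, 704 and 947 CPM in HSD-F1, against 652, 726 and 606 CPM in ND. In these 3 genes HSD-F1 replicate 1 was at least 2-fold below the mean of the others, and the other HSD-F1 libraries overlapped with ND or lay above it. RpS16 (-0.98) had 464, 965 and 1072 CPM in HSD-F1, against 859, 954 and 760.5 CPM in ND. At the other end RpL21 (0.30), RpL40 (0.28) and RpLP2 (0.27) lay above the other libraries.

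The order of the genes within HSD-F1 replicate 1 followed their structure. Across the 60 genes the deviation fell with splice junctions per kb, with a Spearman's rho of -0.75, compared with -0.68 across the other genes. It rose with junctions in the remaining libraries, with a rho of 0.41 and 0.63 in HSD-F1 replicates 2 and 3. In ND replicates 1, 2 and 3 the rho was 0.65, 0.43 and 0.51. For each of these libraries, HSD-F1 replicate 1 is part of the mean of the others. The median deviation in HSD-F1 replicate 1 was -0.01 in the 17 ribosomal protein genes with 1 to 2 junctions per kb, -0.23 in 10 genes with 2 to 3, -0.38 in 15 genes with 3 to 4, -0.54 in 8 genes with 4 to 5 and -0.76 in 9 genes with more. The other genes had medians of 0.01, -0.14, -0.30, -0.44 and -0.69 in the same bins, so the ribosomal protein genes lay slightly below the other genes in each of them. RpLP2, the acidic stalk protein gene with a single exon and no junction, was the only gene below 1 junction per kb and lay at 0.27, where 1950 other genes had a median of 0.19. HSD-F1 replicate 3 was above the other libraries at every junction density, and the other genes of 500 to 1000 bases were also above there, with a median of 0.26 against 0.37 in the 45 ribosomal protein genes of that length. In ND replicate 3 these medians were -0.09 in the other genes and -0.19 in the ribosomal protein genes.

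**Figure D2:**
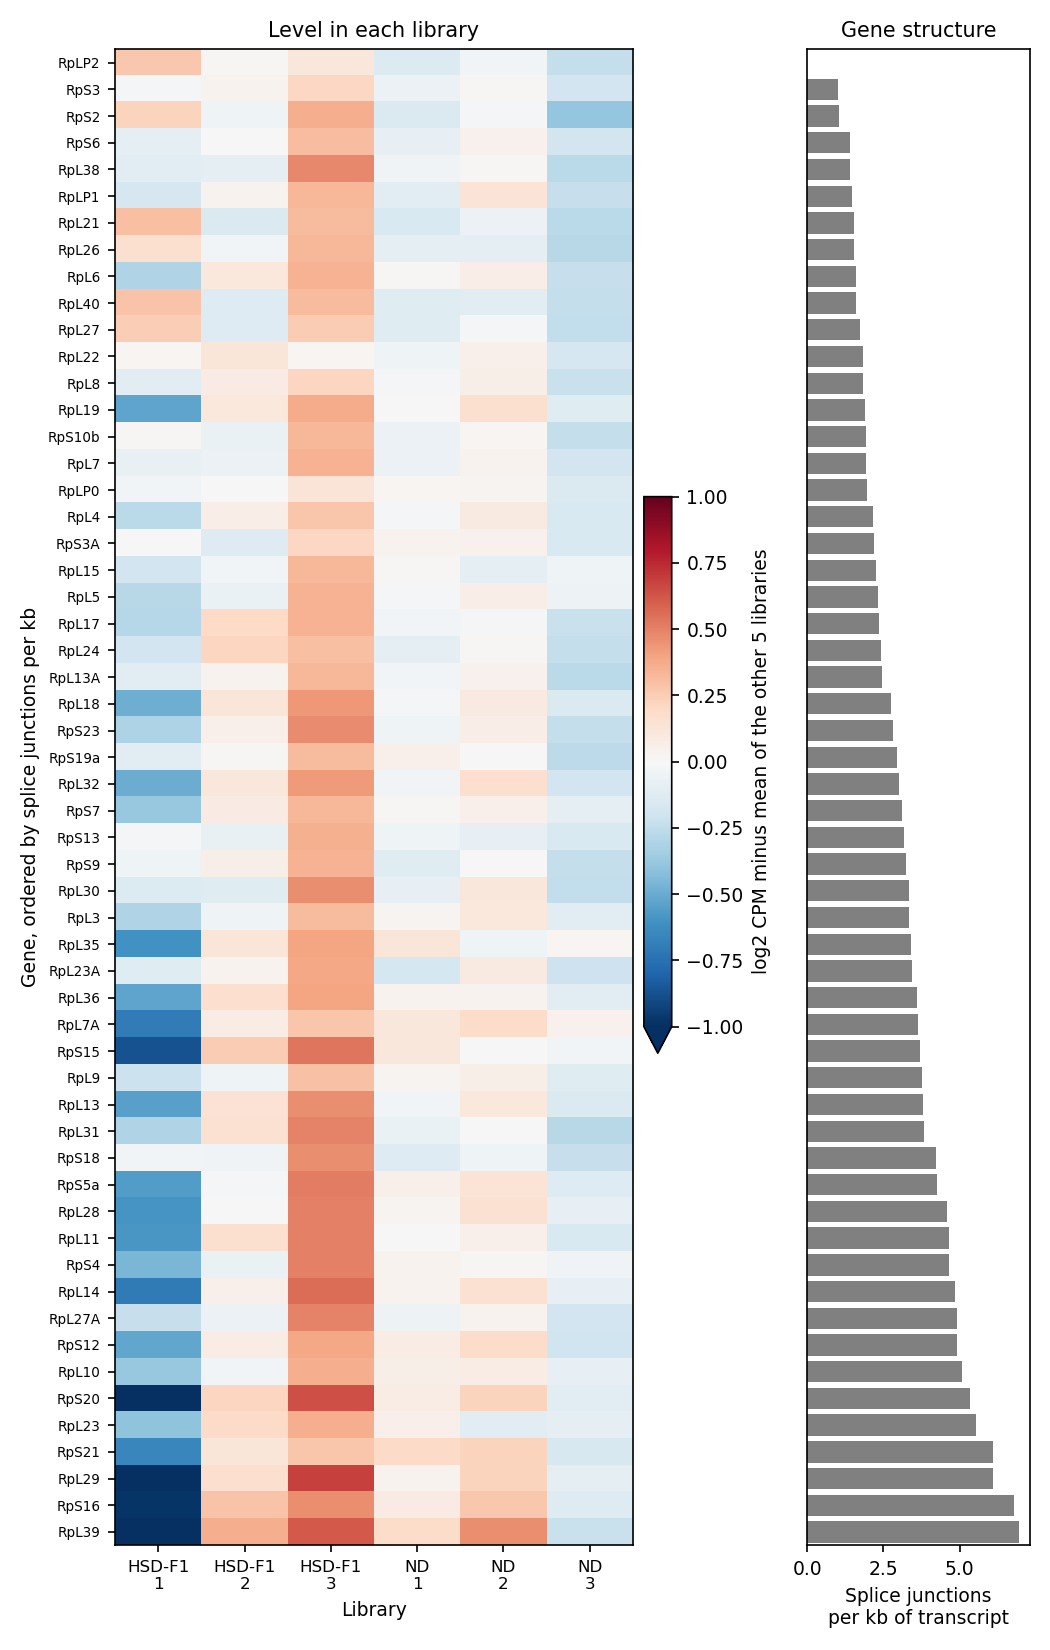
Log2 CPM of 56 of the 60 genes in each library minus the mean of the other 5 libraries (left, colour from -1 to 1, with RpL39, RpS20 and RpL29 below the scale), HSD-F1 libraries left of ND libraries, and the splice junctions per kb by which the genes are ordered (right). HSD-F1 replicate 1 turns from red to blue down the list, and HSD-F1 replicate 3 is red throughout.

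**Figure D3:**
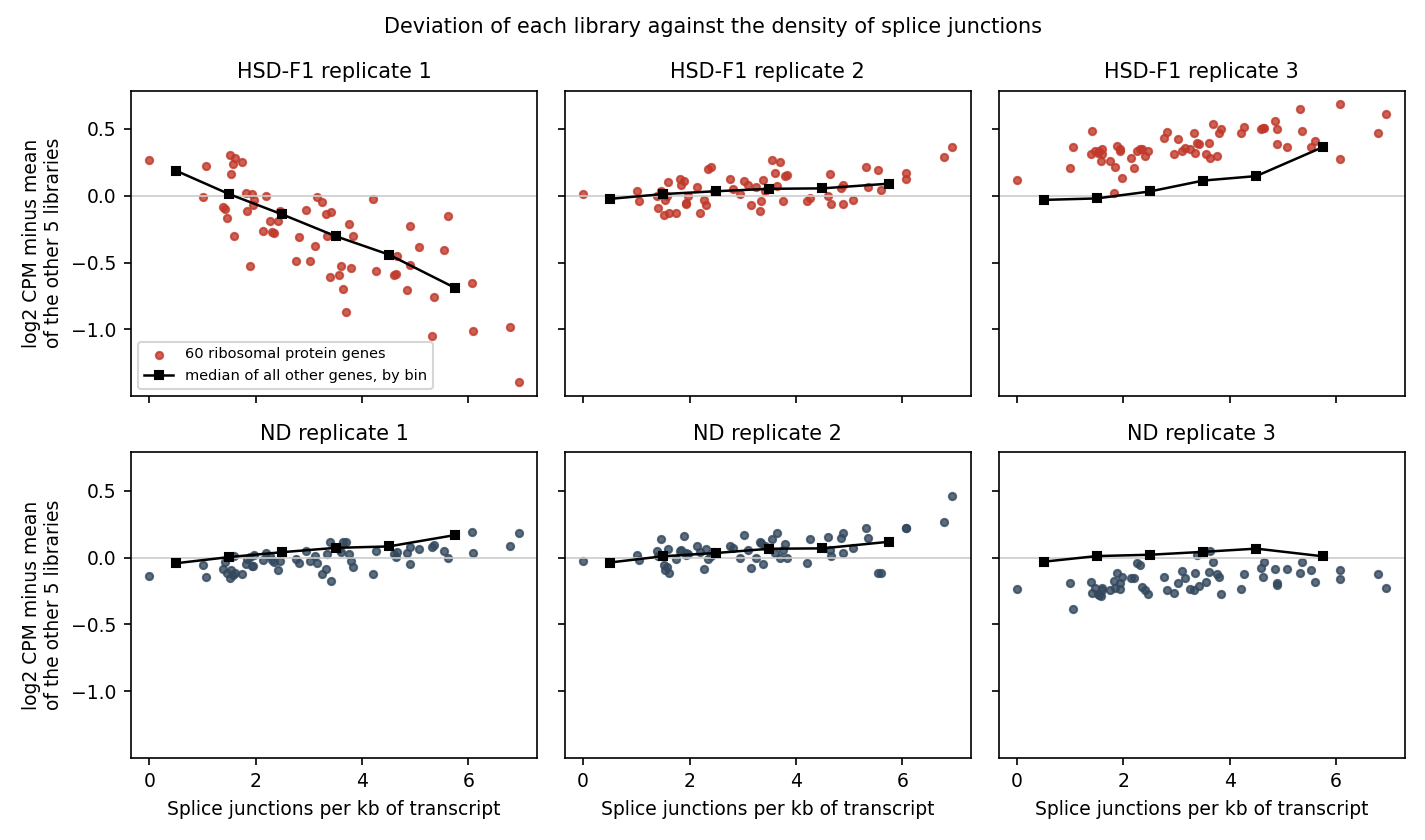
Deviation of each library (log2 CPM minus the mean of the other 5) against splice junctions per kb, with 1 point per ribosomal protein gene and black squares for the median of all other genes in bins of junction density, the last bin holding all genes above 5. HSD-F1 libraries are in the upper row and ND libraries in the lower row. The slope in HSD-F1 replicate 1 is shared with the other genes, whose medians run between 0.19 and -0.69.

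Between the groups, 51 of the 60 genes were fitted higher and 9 lower in HSD-F1, where 49.4% of all genes tested were fitted higher. With total counts and no scaling factor 42 were higher and 18 lower. The median log2 fold change was 0.09, compared with -0.0026 over all genes tested, in a range between -0.15 (RpL7A) and 0.31 (RpS2), and the standard errors of single genes were 0.10 to 0.36. The median was 0.09 in the large subunit (34 higher, 5 lower) and 0.05 in the small subunit (17 higher, 4 lower). An unadjusted p under 0.05 was reached by 3 genes with higher expression (background 2.91% of all genes tested) and by 0 with lower expression (background 2.16%) in the quasi-likelihood test of edgeR. None of the 60 (0 genes, background 0.0664%) had an adjusted p under 0.05, and adjusted p-values lay between 0.911 and 0.999 (edgeR, Benjamini-Hochberg). DESeq2 also gave 0 genes at the adjusted threshold (background 0.232%), and 5 with higher expression at an unadjusted p under 0.05 (background 1.99%). With the 1.5-fold threshold used in the study, 0 genes were called in either direction (background 1.14% higher and 0.672% lower).

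The groups did not overlap in 4 genes, each higher in HSD-F1 (background 6.67%), and 0 genes were lower without overlap (background 5.17%). Among them were RpL26, RpLP2 and RpS18, of which RpLP2 and RpS18 were named after their values were seen. The count was thus at the share seen over all genes. The median coefficient of variation over the 6 libraries was 14.5%, compared with 13.2% over all genes tested. Of all genes tested, 99.1% had a lower mean CPM than the median ribosomal protein gene. The comparison is therefore not between genes of like level.

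**Figure D4:**
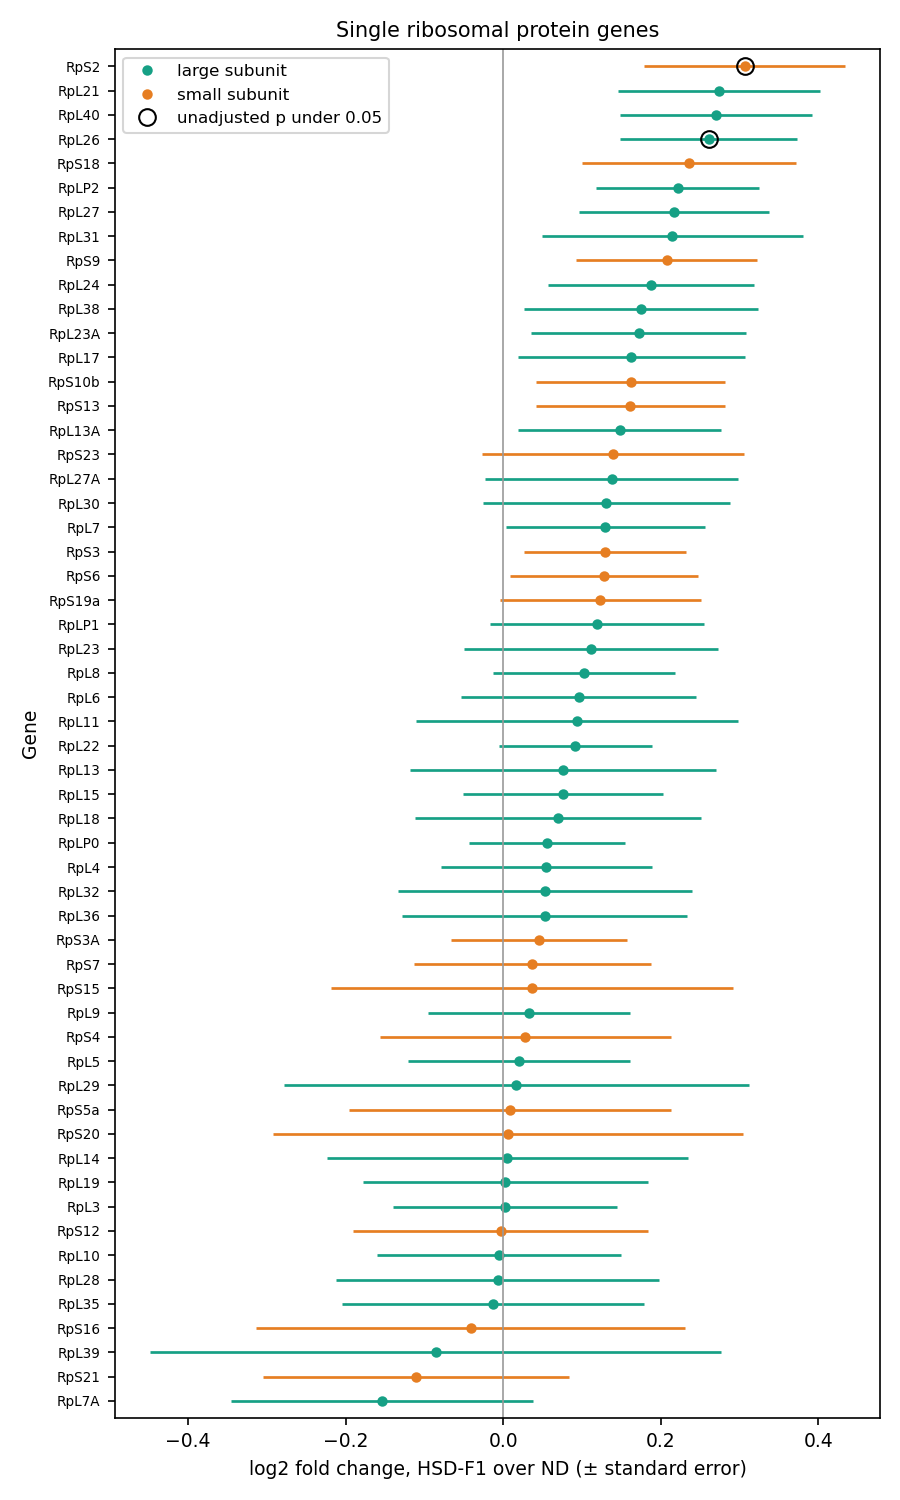
Log2 fold change of HSD-F1 over ND with its standard error for 56 of the 60 genes, ordered by size, large subunit in green and small subunit in orange, with a ring around the 2 genes shown that had an unadjusted p under 0.05 (RpL26 and RpS2). The genes lie between 0.31 (RpS2) and -0.15 (RpL7A), and most error bars reach or approach 0.

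The 3 genes with an unadjusted p under 0.05 encode 2 proteins of the large subunit and 1 of the small subunit. RpL26 (Dmel_CG6846, chromosome 3L, 18898875 to 18900408, plus strand), which lies near the exit of the peptide tunnel, had 627, 560.4 and 690.3 CPM in HSD-F1, against 541, 540.4 and 486 CPM in ND. Every HSD-F1 library was above every ND library, with a log2 fold change of 0.26 ± 0.11 (SE). The edgeR test gave p = 0.0468 and the two-sided exact permutation test of CPM p = 0.1, the smallest that 3 libraries against 3 allow. RpS2 (Dmel_CG5920, chromosome 2L, 9896265 to 9897552, minus strand), a protein of the mRNA entry site, had 826, 709 and 897 CPM in HSD-F1, against 667, 718 and 581 CPM in ND. HSD-F1 replicate 2 lay below ND replicate 2, and the log2 fold change was 0.31 ± 0.13 (SE), with p = 0.0414 in edgeR and p = 0.2 in the exact permutation test. After Benjamini-Hochberg adjustment over all genes, the edgeR test gave an adjusted p of 0.911 for each of the 3.

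RpL21 and RpL40 had log2 fold changes between those of RpS2 and RpL26. RpL40 is made as a fusion with ubiquitin, from which the ribosomal protein is cut off. RpL21 had 940.3, 728 and 951 CPM in HSD-F1, against 725, 764 and 677 CPM in ND, with a log2 fold change of 0.27 ± 0.13 (SE). RpL40 had 917, 723 and 933 CPM in HSD-F1, against 727, 728 and 678 CPM in ND, with a log2 fold change of 0.27 ± 0.12 (SE). In both, HSD-F1 replicates 1 and 3 were above all ND libraries and HSD-F1 replicate 2 was among them. They passed an unadjusted p under 0.05 in DESeq2 (0.0434 and 0.0377) and not in edgeR (0.0629 and 0.0557).

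At the lower end, RpL7A (Dmel_CG3314, chromosome X), the most abundant of the 60, had 1382, 2159 and 2432 CPM in HSD-F1, against 2214, 2305 and 2127 CPM in ND. Its log2 fold change of -0.15 ± 0.19 (SE) came with 1 HSD-F1 library below and 1 above all ND libraries, and without HSD-F1 replicate 1 it was 0.05. RpS21 had 190.0, 297 and 325 CPM in HSD-F1, against 309.5, 315 and 253 CPM in ND, with a log2 fold change of -0.11 ± 0.19 (SE). The log2 fold changes of RpL39 and RpS16 were -0.09 ± 0.36 and -0.04 ± 0.27 (SE). HSD-F1 replicate 1 was the lowest library in each of these 4 genes, and without it all 4 were fitted higher in HSD-F1, by 0.05 to 0.27.

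Of RpL32, RpLP0, RpS6 and RpS12, known for their use as reference genes or for further roles, 0 had an unadjusted p under 0.05 in edgeR's test. RpL32 (rp49, Dmel_CG7939, chromosome 3R, 30045229 to 30046161, minus strand) had 689, 976 and 1172 CPM in HSD-F1, against 903, 1009.8 and 821 CPM in ND. Its log2 fold change was 0.05 ± 0.19 (SE), and the HSD-F1 libraries lay on both sides of the ND libraries, with a coefficient of variation of 17.9% over the 6 libraries. RpLP0, the base of the ribosomal stalk and another common reference gene, had 1301, 1322 and 1429 CPM in HSD-F1, against 1338, 1343 and 1219 CPM in ND. It varied least of the 60, with a coefficient of variation of 5.14%, and its log2 fold change was 0.06 ± 0.10 (SE). RpS6, the target of S6 kinase in the insulin and TOR pathway, had 1000.4, 1052 and 1257 CPM in HSD-F1, against 1003, 1080.0 and 946 CPM in ND, with a log2 fold change of 0.13 ± 0.12 (SE). RpS12, which is needed in Drosophila for cells with too few ribosomal proteins to be outcompeted, had 641, 906 and 1084 CPM in HSD-F1, against 905, 961 and 770.2 CPM in ND. Its log2 fold change was -0.0034 ± 0.19 (SE), with the 2 outermost libraries both in HSD-F1.

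Among the genes with the highest and lowest levels per kb, 0 had an unadjusted p under 0.05 in edgeR's test. RpL14 (log2 fold change 0.0052), RpL29 (0.02), RpS15 (0.04), RpS20 (0.0058) and RpL5 (0.02) had fold changes near 0 with standard errors of 0.14 to 0.30. RpS15 had 1019, 1951 and 2302 CPM in HSD-F1, against 1802, 1683 and 1658 CPM in ND, so that 1 HSD-F1 library was below and 2 were above all ND libraries. RpL27A (0.14 ± 0.16), RpL38 (0.18 ± 0.15) and RpS9 (0.21 ± 0.12, SE) were fitted higher without passing the test. RpS9 had 274, 292 and 345 CPM in HSD-F1, against 262, 281 and 246 CPM in ND, where only HSD-F1 replicate 1 overlapped with ND.

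Several of the 60 have paralogs, which in other tissues, chiefly the gonads, add a variant of the protein. The members were the abundant form in each case in the head. RpL22, whose fly protein carries a long extension resembling histone H1, had 569, 602 and 569 CPM in HSD-F1, against 547, 578 and 508 CPM in ND, while RpL22-like stayed at or below 0.0987 CPM. RpS5a had 974, 1333 and 1813 CPM in HSD-F1, against 1385, 1458 and 1252 CPM in ND. Its paralog RpS5b had 0.493, 3.15 and 4.99 CPM in HSD-F1, against 2.60, 3.30 and 6.56 CPM in ND, and ND replicate 3, where ovary and egg genes were also highest, had the highest value. RpS19a averaged 1175 ± 151 CPM in HSD-F1 and 1079 ± 102 CPM in ND (SD, n = 3 each), with RpS19b at or below 0.0493 CPM, and RpS10b averaged 627 ± 78.1 CPM in HSD-F1 and 560.2 ± 41.5 CPM in ND (SD, n = 3 each), with RpS10a at or below 0.228 CPM. RpL10Aa, a paralog of RpL10Ab, which is not among the 60, had 0 counts in every library. Of 10 paralogs listed, 5 passed the filter on low counts. RpS15Ab was the 1 with an unadjusted p under 0.05 in edgeR's test (log2 fold change 0.30 ± 0.12, SE, background 2.91% higher). It is an intronless copy of RpS15Aa, which is not among the 60. Reads shared by near-identical copies may have been left out, if only uniquely mapped reads were counted, or divided between them.

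On all 6 libraries the log2 fold changes followed the number of exons, a grouping chosen after the values were seen. All 10 genes with 1 or 2 exons (RpL21, RpL26, RpL27, RpL38, RpL40, RpLP1, RpLP2, RpS2 and RpS3 among them) were fitted higher in HSD-F1, with a median log2 fold change of 0.24. Of 23 genes with more than 2 and up to 3 exons, 21 were higher and 2 lower, with a median of 0.10. Of 27 genes with more than 3 exons, 20 were higher and 7 lower, with a median of 0.03. Without HSD-F1 replicate 1 the 3 medians were 0.22, 0.22 and 0.20, with every gene of each class fitted higher, so the order of the classes rested on this library. Without HSD-F1 replicate 3 they were 0.20, -0.03 and -0.14. Where a gene has several transcripts, its exon number is their median.

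The 3 genes with an unadjusted p under 0.05 were all in the first class. The genes with 1 or 2 exons summed to 7601, 6735 and 8166 CPM in HSD-F1, against 6467, 6814 and 5945 CPM in ND. Those with more than 3 exons summed to 24378, 32970 and 40234 CPM in HSD-F1, against 32256, 33424 and 29829 CPM in ND. In HSD-F1 replicate 1 the first class was above all ND libraries and the last class below all of them.

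Which genes had an unadjusted p under 0.05 changed with the libraries in the model. Without HSD-F1 replicate 1 all 60 genes were fitted higher in HSD-F1, with a median log2 fold change of 0.22, and 10 genes had an unadjusted p under 0.05 (background 3.47%). Among these were RpL11, RpL13, RpL17, RpL23, RpL24, RpL31, RpL36, RpS9 and RpS15. The 10 shared 0 genes with the 3 called on all libraries, and 0 of them had 1 or 2 exons. Without HSD-F1 replicate 3 the median turned to -0.05, with 25 genes higher and 35 lower, and 0 genes had an unadjusted p under 0.05 in edgeR's test (background 2.32% higher and 2.7% lower). Without HSD-F1 replicate 2 there were 7 (background 3.81%), all with 1 or 2 exons, among them the 3 called on all libraries. Leaving out ND replicate 1, 2 or 3 gave 0, 1 (RpS2) and 0 genes (backgrounds 2.08%, 2.08% and 1.96%), with medians of 0.10, 0.13 and 0.04. With 1 library left out, RpL26 kept an unadjusted p under 0.05 only without HSD-F1 replicate 2, and RpS2 without HSD-F1 replicate 2 or ND replicate 2. Their log2 fold changes stayed between 0.18 and 0.39 in these models. An adjusted p under 0.05 was reached by 0 of the 60 genes in each of these models. The background of adjusted calls was 0.0927%, 0.0506% and 0.0338% without HSD-F1 replicates 1, 2 and 3, and 0.0338%, 0.0338% and 0.178% without ND replicates 1, 2 and 3.

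Models with an offset for gene structure were then fitted, in which the relation of each library to structure was taken from the 7189 other genes. Such an offset also removes a difference between the groups that follows structure in these genes. It therefore cannot tell a difference between libraries from one between groups. With an offset for junctions per kb the median deviation of the 60 genes from the mean of the 6 libraries became -0.05 in HSD-F1 replicate 1, compared with -0.23 before. In HSD-F1 replicate 3 it became 0.25, compared with 0.30 before. The median log2 fold change was 0.12, with 57 genes higher and 3 lower. An unadjusted p under 0.05 was reached by 10 genes (background 2.66%), RpL26 and RpS2 among them. With offsets for both junctions and transcript length, the library medians spanned 0.16 on the log2 scale, compared with 0.52 without an offset. The median log2 fold change was then 0.07, with 44 genes higher and 16 lower, and 2 genes (RpL23A and RpS9) had an unadjusted p under 0.05 (background 2.71%), of which 0 were among the 3. The log2 fold change of RpL26 was 0.10 with both offsets and that of RpS2 was 0.22. An adjusted p under 0.05 was reached by 0 genes with either set of offsets (backgrounds 0.0728% and 0.0455%).

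**Figure D5:**
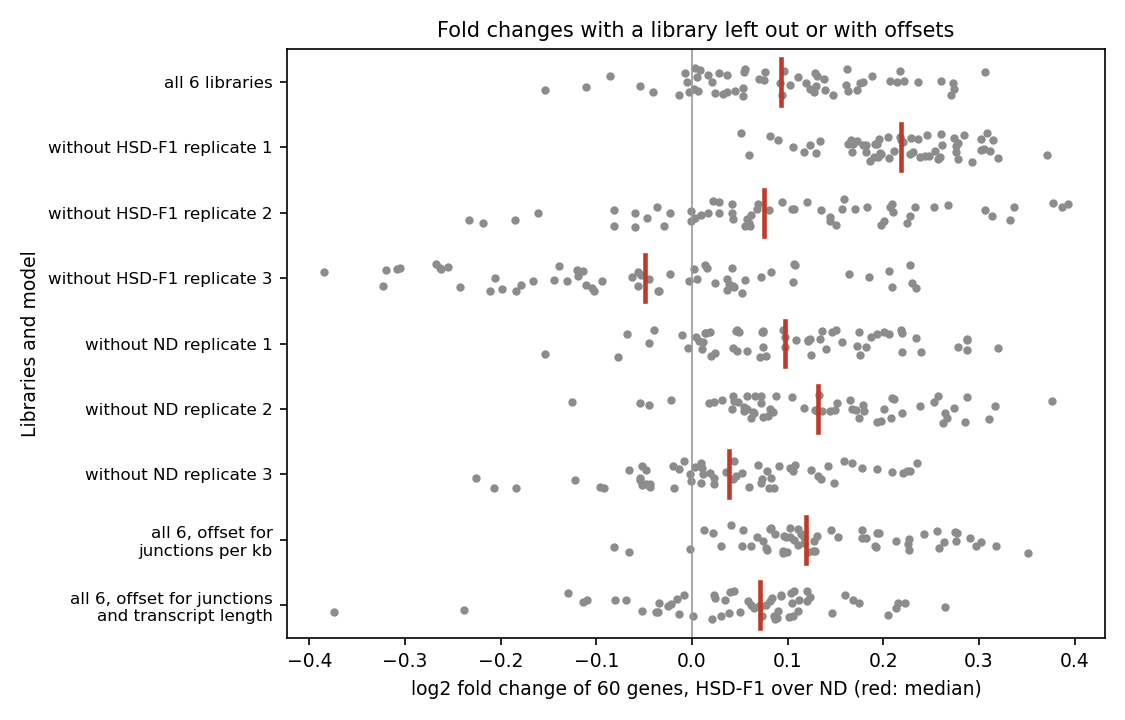
Log2 fold change of HSD-F1 over ND for the 60 genes (grey points, 1 per gene, with vertical jitter) and their median (red line), on all 6 libraries, with each library left out in turn, and with offsets for gene structure. The median lies at 0.22 without HSD-F1 replicate 1 and at -0.05 without HSD-F1 replicate 3, compared with 0.09 on all libraries.

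The medians by chromosome arm lay close together. The median log2 fold change was 0.13 for 13 genes on 2L, 0.10 for 14 genes on 2R, 0.07 for 13 genes on 3L, 0.05 for 10 genes on 3R and 0.09 for 9 genes on X, and RpS3A, the 1 gene on chromosome 4, was at 0.05. Overlap with other genes limits some values. Exons of 21 members overlap exons of another gene, and for 5 the partner on the opposite strand held more than 5% of the member's counts. RpL39 overlaps RpL12, which had 1130% of its counts (755.8, 1236 and 1526 CPM in HSD-F1, against 1221, 1273 and 1102 CPM in ND), so its value is uncertain. RpL23 overlaps inaD (85.2% of its counts) and RpL27 overlaps Idh3g (51.0%). For RpL30, which overlaps CG31793, the share was 7.82%. Without knowing whether counting used strand, the reads of such pairs cannot be told apart. RpL26 and RpS2 had no overlapping gene.

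The 21 other cytoplasmic ribosomal protein genes had the same order of libraries at their ends. They summed to 14448, 18114 and 22528 CPM in HSD-F1, against 17307, 18148 and 15899 CPM in ND. Of the 21, 19 were higher and 2 lower in HSD-F1, with a median log2 fold change of 0.09, where 49.4% of all genes tested were higher. Without HSD-F1 replicate 1 all 21 were higher (median 0.23), and without HSD-F1 replicate 3 there were 6 higher and 15 lower (median -0.09). An unadjusted p under 0.05 in edgeR's test was reached by 2 of the 21 (background 2.91% higher). These were RpS26, with a log2 fold change of 0.41 ± 0.10 (SE), and RpS24, with 0.25 ± 0.10 (SE). Both have 2 exons and were named after their values were seen. RpS26 had 859, 991 and 1004 CPM in HSD-F1, against 719, 731 and 699 CPM in ND. Its groups did not overlap, where the background higher without overlap was 6.67%.

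The other genes of translation were listed by their step. The 10 elongation factor and poly(A)-binding protein genes summed to 18510 CPM in HSD-F1 replicate 1, 16798 CPM in replicate 2 and 18466 CPM in replicate 3, against 16648, 16874 and 15596 CPM in ND. Their median log2 fold change was 0.11, with 0 genes at an unadjusted p under 0.05 in edgeR's test (background 2.91% higher and 2.16% lower). Among them eEF1alpha1, which brings aminoacyl-tRNA to the ribosome and has 2 exons, had 7434, 6106 and 7063 CPM in HSD-F1, against 5916, 5981 and 5727 CPM in ND. The 26 initiation factor genes summed to 5869, 6289.5 and 7023 CPM in HSD-F1, against 6230.2, 6226 and 6049 CPM in ND, with the same libraries at the ends as in the ribosomal protein genes. Their median was 0.06, and 1 of them (eIF4H1) had an unadjusted p under 0.05 with higher expression, where the background was 2.91%. The 25 ribosome biogenesis genes summed to 1000.3, 1027 and 1226 CPM in HSD-F1, against 999, 1073 and 1087 CPM in ND. Their median was 0.18, and 3 of them (Nop56, vito and Rlb1) were called higher against the same background. Without HSD-F1 replicate 3 the medians of both lists were -0.0062 and 0.13. The 6 genes of the response to ribosomal protein loss had a median of 0.02 and 0 calls against the same backgrounds. Xrp1, the central transcription factor of this response, had 437, 549.6 and 443 CPM in HSD-F1, against 401, 496 and 525 CPM in ND. Of 72 mitochondrial ribosomal protein genes tested, which serve the separate ribosome of mitochondria, 60 were higher and 12 lower, where 49.4% of all genes tested were higher, with a median of 0.13. They summed to 1300.0, 1381 and 1520.0 CPM in HSD-F1, against 1365, 1348 and 1263 CPM in ND, highest in HSD-F1 replicate 3. An unadjusted p under 0.05 was reached by 6 of them, each higher (background 2.91%). In these lists 0 genes had an adjusted p under 0.05 in edgeR (background 0.0664%).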

How the data were processed

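Poly(A) RNA was sequenced from heads as paired-end reads, and the authors deposited 1 table per library with the whole-number count of reads on each gene, without normalization. The paper's methods say that uniquely mapped reads were kept. The submitters' processing notes name HISAT2 2.0.4, Bowtie2 2.2.5, RSEM 1.2.12 and DESeq2 1.4.5 without saying which made the counts, and the use of strand is not given in the sources used here. The deposited coordinates and counted length of each gene were read from the same tables. Symbols came from RefSeq's gene table of Release 6, in which all 60 ribosomal protein genes had identical start and end positions. Exon number and transcript length were the medians over a gene's transcripts in the Ensembl annotation of the same release, and splice junctions per kb were taken from these transcripts. They were found for 13948 genes.

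The software was edgeR 4.0.16, DESeq2 1.42.0 and limma 3.58.1 under R 4.3.3, and pandas 2.3.3, numpy 2.4.6, matplotlib 3.10.9 and SciPy 1.17.1 under Python 3.11.15. Genes with a sum of 10 or more counts in the 6 libraries were tested with edgeR's quasi-likelihood test (TMM scaling, group as the only term) and Benjamini-Hochberg adjustment over all 12048 genes. CPM are TMM-scaled, and log2 CPM used a prior count of 2. The deviation of a library is its log2 CPM minus the mean of the other 5 libraries. CPM of single genes were also permuted over the 20 assignments of libraries (exact, two-sided), where p cannot go below 0.1. The scripts were tested on simulated data.

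The members, the gene lists and the classes of gene structure were chosen with earlier results of these data known. Genes described singly were those with an unadjusted p under 0.05, the 5 largest changes each way, the 3 highest and 3 lowest per kb of each subunit, members with paralogs, and RpL32, RpLP0, RpS6, RpS12 and RpL40. Other genes were chosen after their values were seen. Alternatives were RLE factors, no scaling factor, TMM without the members, upper quartile, 2 other filters, DESeq2, limma-voom, a block for the replicate number and leaving out each library. After seeing the data, 2 offsets were added, fitted in each library by splines over 7189 other genes with a mean log2 CPM above 3. No sequences are shown. A few of the 60 genes are not reported singly here but are part of every sum, count and median.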

Additional observations from a re-analysis of the deposited data

How the results depend on the processing

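The count of genes with an adjusted p under 0.05 was 0 in all 17 alternatives. The count with an unadjusted p under 0.05, which was 3, was 1 with total counts and no scaling factor, 5 with DESeq2, 10 with the offset for junctions per kb, chosen after seeing the data, and 0 to 10 when 1 library was left out. With the replicate number as a block it was 0. Same-numbered HSD-F1 and ND libraries deviated together with r = 0.25, 0.0084 and 0.28 over genes. Between HSD-F1 and ND libraries of different number, r lay between -0.30 and 0.070. Whether the numbers pair the samples cannot be told from these values. The median log2 fold change, the ratio of summed CPM and the ratio of subunits moved by less than the SD between HSD-F1 replicates in each alternative tried. Leaving out an HSD-F1 library could hardly move a mean over these same replicates by more, so this does not show stability. The ratio of subunits was tried only with each library left out and with medians in place of sums. The direction of the median and of both ratios changed. The median was -0.05 and the ratio of sums 0.950 without HSD-F1 replicate 3. The subunit ratio of HSD-F1 over ND was 0.987 without HSD-F1 replicate 1.

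Among the genes described singly by the rule, the following changed sign, and none of them (0 genes) had passed an unadjusted p under 0.05 in edgeR's test. RLE factors gave RpL14 -0.0021 and RpS20 -0.0015, and DESeq2 gave RpL14 -0.0021 and RpS20 -0.0016. Total counts gave RpL14 -0.026, RpL29 -0.016, RpL5 -0.0097, RpS20 -0.026 and RpS5a -0.022. The replicate block gave RpL14 -0.055, RpL29 -0.090, RpS15 -0.040, RpS20 -0.10 and RpS5a -0.035, and limma-voom gave RpL14 -0.058, RpL29 -0.095, RpS15 -0.049, RpS20 -0.11 and RpS5a -0.037. RpS12 was 0.014 with upper quartile scaling and 0.00026 with the filter in every library. The offset for junctions gave RpS12 0.099 and RpS16 0.022, and both offsets together gave RpL14 -0.016, RpL29 -0.24, RpL32 -0.038, RpS12 0.0015, RpS15 -0.034, RpS16 0.072 and RpS20 -0.052. Over all 60 genes, 4 changed sign with RLE factors, 9 with total counts and 13 with both offsets, among the last RpLP2 (-0.11, against 0.22 without an offset) and RpLP1 (-0.035, against 0.12). The cause was not tested.

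With 1 library left out, 14 of the genes described singly changed sign, with log2 fold changes of -0.27 to 0.24 for RpL14, -0.062 to 0.26 for RpL27A, -0.32 to 0.32 for RpL29, -0.13 to 0.24 for RpL32, -0.0033 to 0.26 for RpL38, -0.38 to 0.27 for RpL39, -0.14 to 0.13 for RpL5, -0.32 to 0.051 for RpL7A, -0.18 to 0.18 for RpS12, -0.21 to 0.31 for RpS15, -0.26 to 0.25 for RpS16, -0.31 to 0.31 for RpS20, -0.26 to 0.090 for RpS21 and -0.24 to 0.20 for RpS5a.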
